A study of Mus musculus with 6 samples.

Results

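The contractile genes of smooth muscle and myofibroblasts were followed in macrophage cultures grown from mouse bone marrow. They comprise Acta2, Tagln, Cnn1, Cnn2, Myl9, Tpm1, Tpm2, Cald1 and Myh11, chosen by gene name, and all 9 were found among the 17313 genes of the deposited table. The cultures came from LLC1-bearing C57BL/6 mice in which every animal carried floxed Hdac2 alleles. LLC1, a line of Lewis lung carcinoma cells, had been given intravenously, and the marrow was collected on day 20. The KO group (3 libraries) also carried LysM-Cre, which drives recombination in myeloid cells from the Lyz2 locus, and the WT group (3 libraries) had the floxed alleles without Cre. Nothing in the labels ties the libraries to individual animals. The p-values therefore reflect only how these libraries spread, which may be technical. Values are library-scaled, rounded read counts, called scaled counts here, and their totals lay between 5704313 and 5837994.

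Smooth muscle cells and myofibroblasts, the contractile form of fibroblasts, shorten when myosin pulls on actin filaments. Smooth muscle actin (Acta2) forms the filament, and smooth muscle myosin heavy chain (Myh11) with its regulatory light chain (Myl9) forms the motor. Tropomyosins (Tpm1, Tpm2), caldesmon (Cald1) and calponins (Cnn1, Cnn2) lie along the filament and regulate it, and transgelin (Tagln) binds and bundles actin. The genes are classic targets of serum response factor (SRF), which binds a DNA element called the CArG box together with myocardin or the related factors MRTF-A and MRTF-B. Calponin-2 and tropomyosin 1 are also made in non-muscle cells, while Myh11 is the most restricted to differentiated smooth muscle.

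The 4 promoters below are shown because they hold a CArG box or a near match, and that of Cnn1 because this gene had the largest difference between KO and WT and its promoter held neither. Each is the 250 bases before the RefSeq start site (GRCm38.p6), 5′ to 3′ on the gene's strand. Capitals mark 10-base windows that match the CArG box with at most 1 letter changed.
Acta2 (chr19:34255374-34255623, minus strand): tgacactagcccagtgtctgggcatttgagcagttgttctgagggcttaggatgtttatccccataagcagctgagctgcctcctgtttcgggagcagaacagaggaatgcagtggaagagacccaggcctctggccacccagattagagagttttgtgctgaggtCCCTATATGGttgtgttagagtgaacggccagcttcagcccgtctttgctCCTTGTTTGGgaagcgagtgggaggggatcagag
Myl9 (chr2:156775214-156775463, plus strand): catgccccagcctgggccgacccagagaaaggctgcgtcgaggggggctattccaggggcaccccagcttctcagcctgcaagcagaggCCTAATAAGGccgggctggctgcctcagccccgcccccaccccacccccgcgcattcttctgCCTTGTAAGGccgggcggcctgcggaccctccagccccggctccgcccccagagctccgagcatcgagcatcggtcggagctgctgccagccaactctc
Cnn2 (chr10:79988350-79988599, plus strand): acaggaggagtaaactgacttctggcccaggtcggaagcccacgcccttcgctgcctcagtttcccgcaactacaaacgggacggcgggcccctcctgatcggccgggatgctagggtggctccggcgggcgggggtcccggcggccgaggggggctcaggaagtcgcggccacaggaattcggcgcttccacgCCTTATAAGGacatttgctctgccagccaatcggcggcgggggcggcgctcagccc
Tpm1 (chr9:67049214-67049463, minus strand): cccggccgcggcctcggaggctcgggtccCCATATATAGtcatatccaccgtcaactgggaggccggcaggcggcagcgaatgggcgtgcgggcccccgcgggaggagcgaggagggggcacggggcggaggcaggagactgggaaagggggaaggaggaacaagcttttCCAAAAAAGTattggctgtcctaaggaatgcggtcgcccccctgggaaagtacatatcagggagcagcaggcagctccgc
Cnn1 (chr9:22099003-22099252, plus strand): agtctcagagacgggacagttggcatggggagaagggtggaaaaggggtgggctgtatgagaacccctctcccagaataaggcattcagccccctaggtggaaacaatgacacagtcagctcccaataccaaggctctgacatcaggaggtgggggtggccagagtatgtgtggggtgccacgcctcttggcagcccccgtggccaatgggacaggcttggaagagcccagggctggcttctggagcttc
Of the 9 genes, 7 had a promoter in the RefSeq table, with 8 windows in all because Cald1 had 2. In windows from 250 bases before to 50 after the start, an exact CArG box was found in Myl9, 161 bases before the start (CCTAATAAGG), and in Cnn2, 56 bases before it (CCTTATAAGG). Exact boxes were present in 1.63% of the 32851 promoters of the table. Acta2 had windows with 1 letter changed 84 and 34 bases before the start (CCCTATATGG and CCTTGTTTGG), and Tpm1 had a pair of such windows. Of the Cald1 promoters, the one upstream had 1, so that 5 of 8 windows held an exact or near match, against 21.1% of all promoters. The GC box GGGCGG, read on both strands and bound by SP1, was present in 5 of 8 windows and in 35.7% of all promoters. The element CATTCC, read on both strands and bound by TEAD factors, was in 3 of 8 and in 14.7%. These matches describe letters in a window and not binding.

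Sex-linked RNAs set WT 2 and WT 3 apart from WT 1 and the KO libraries. Xist, made by the inactive X of female cells, was at 4726, 4997 and 3298 in KO, against 5243, 0 and 74 in WT. The Y-linked genes Ddx3y, Kdm5d, Uty and Eif2s3y were at 10 or below in KO libraries, at 23 to 44 in WT 1 and at 179 to 745 in WT 2 and WT 3.

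All 9 genes had higher mean values in KO than in WT and a log2 difference above 0, against 49.1% of the 13260 genes tested (those with at least 10 in at least 3 libraries). The ratio of means ran between 1.27 for Tpm1 and 2.78 for Cnn1, with 6 genes at 1.5 or more, against 12.8% of the tested genes. For 8 genes the lowest KO value exceeded the highest WT value, against 16.1% of the tested genes. All 9 reached 10 in every library, the lowest value being 14 for Myh11 in WT 2. None of the 9 passed the limma test of KO against WT after Benjamini-Hochberg adjustment over all genes, and neither did any other gene. WT 1 stood apart from WT 2 and WT 3 in each of the 9, as the plot of values by library shows, and the results are therefore also given against WT 1 and against the other two separately. In bulk cultures, fewer cells of a type and less RNA per cell cannot be told apart.

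**Figure D1:**
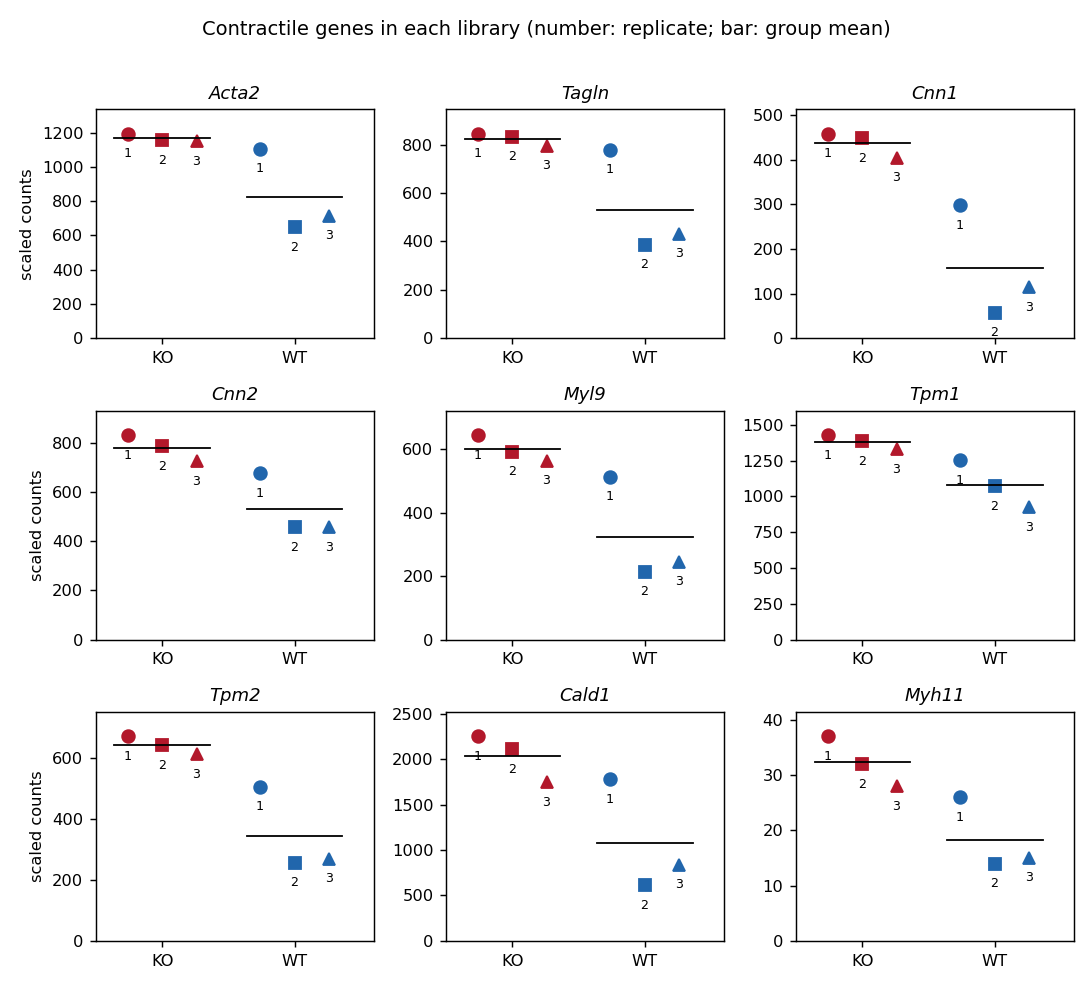
Scaled counts of the 9 contractile genes in each library (y axis from 0), KO on the left and WT on the right of each panel, with replicate numbers below the points and a bar at the group mean. WT 1 lies above WT 2 and WT 3 in every panel, and only in Cald1 does a KO library (1747) fall below WT 1 (1780).

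Acta2 (ENSMUSG00000035783, chromosome 19, 34241090 to 34255590, mm10), the smooth muscle actin that marks myofibroblasts, was at 1192, 1154 and 1150 scaled counts in KO 1, KO 2 and KO 3, against 1105, 648 and 714 in WT 1, WT 2 and WT 3. The KO libraries lay close together, and WT 1 lay nearer to them than to the other WT libraries. The log2 difference was 0.54 ± 0.19 (SE, n = 3 each; limma adjusted p = 0.17). Its protein is nearly identical to the other muscle actins, and some reads may be shared with Actg2, Acta1 and their relatives. How many reads are shared was not tested.

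Myl9 (ENSMUSG00000067818, chromosome 2, 156775420 to 156781658), the regulatory light chain whose phosphorylation switches smooth muscle myosin on, was at 645, 593 and 564 in KO, against 513, 214 and 245 in WT. The groups did not overlap, and the log2 difference was 1.00 ± 0.32 (SE; limma adjusted p = 0.159). Myl12a and Myl12b, close relatives that may share some of its reads, showed no such separation. Myl12a was at 289, 277 and 288 in KO against 275, 279 and 251 in WT, and Myl12b at 49, 45 and 55 in KO against 59, 69 and 47 in WT.

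Myh11 (ENSMUSG00000018830, chromosome 16, 14194535 to 14291372), the smooth muscle motor, was near the lower end of the table at 37, 32 and 28 in KO, against 26, 14 and 15 in WT. The groups were separated by 2 scaled counts, between KO 3 and WT 1. The log2 difference was 0.83 ± 0.29 (SE; limma adjusted p = 0.168), on a scale that understates the change of a gene this low. Myocd, the coactivator myocardin that marks smooth muscle, was lower still, at 8, 4 and 8 in KO against 1, 0 and 3 in WT, below the level for testing.

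Cnn1 (ENSMUSG00000001349, chromosome 9, 22099216 to 22109630), the calponin of smooth muscle, had the widest separation of the 9. It was at 458, 448 and 405 in KO, against 298, 58 and 115 in WT, a log2 difference of 1.78 ± 0.55 (SE; limma adjusted p = 0.158). Cnn2 (ENSMUSG00000004665, chromosome 10, 79988584 to 79996062), its widely expressed relative, was at 831, 786 and 724 in KO, against 676, 457 and 456 in WT, a log2 difference of 0.58 ± 0.16 (SE; limma adjusted p = 0.158). The balance between the calponins therefore differed between libraries. Per exonic base, the Cnn1 level was 0.496, 0.512 and 0.503 of the Cnn2 level in KO, and 0.396, 0.114 and 0.227 of it in WT.

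The tropomyosins also differed from each other, with the larger difference in Tpm2. Tpm2 (ENSMUSG00000028464, chromosome 4, 43514711 to 43523765), the beta chain, was at 670, 641 and 612 in KO, against 505, 256 and 269 in WT, a log2 difference of 0.97 ± 0.26 (SE; limma adjusted p = 0.158). Tpm1 (ENSMUSG00000032366, chromosome 9, 67022590 to 67049406), whose isoforms serve both muscle and non-muscle cells, was at 1427, 1383 and 1327 in KO, against 1252, 1069 and 925 in WT. Its log2 difference of 0.36 ± 0.11 (SE; limma adjusted p = 0.158) was the smallest of the 9. Per exonic base, Tpm2 stood at 1.05, 1.03 and 1.03 times Tpm1 in KO, and at 0.899, 0.534 and 0.648 times it in WT.

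Cald1 (ENSMUSG00000029761, chromosome 6, 34598500 to 34775473), whose protein holds back myosin on the thin filament, was at 2251, 2111 and 1747 in KO, against 1780, 614 and 837 in WT. It was the only gene of the 9 whose groups overlapped, by WT 1 lying above KO 3, and its log2 difference was 1.06 ± 0.38 (SE; limma adjusted p = 0.17). Tagln (ENSMUSG00000032085, chromosome 9, 45929619 to 45936058), the actin-bundling transgelin, was at 844, 833 and 796 in KO, against 778, 387 and 431 in WT. Here WT 1 came within 18 scaled counts of KO 3, and the log2 difference was 0.70 ± 0.26 (SE; limma adjusted p = 0.174).

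Tagln is also the gene whose reads are least certain by position. The annotated antisense gene Gm48529 shares 1241 exonic bases with it and was at 181, 147 and 115 in KO, against 132, 57 and 62 in WT. Whether counting used strand is not stated in the sources used here, and reads of Tagln and Gm48529 then cannot be told apart. Pcsk7, a protease gene that shares 108 exonic bases with Tagln on the other strand, was at 531, 500 and 541 in KO, against 541, 537 and 493 in WT, and did not follow it. No other gene of the annotation shared exonic bases with any of the 9. None of the 9 lay on a sex chromosome, and 3 of them (Cnn1, Tagln, Tpm1) lay apart from each other on chromosome 9. Of the 18 nearest protein-coding neighbours in the table, 3 had every KO library above every WT library, against 16.1% of all tested genes. Only 1 had every KO library below, against 13.4%. Among the 3, Tln2, 167681 bases from Tpm1, was separated widely, at 1103, 891 and 766 in KO against 614, 113 and 171 in WT. Agbl3, next to Cald1, was separated only narrowly, at 75, 47 and 47 in KO against 46, 35 and 40 in WT. Stambpl1, 757 bases from Acta2, was at 328, 303 and 281 in KO against 264, 280 and 266 in WT. Abca7, 432 bases from Cnn2, was at 657, 686 and 740 in KO against 728, 768 and 707 in WT.

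Levels can be set beside each other only per exonic base. On that scale the KO means were 0.531 for Acta2, 0.517 for Myl9, 0.415 for Tagln, 0.317 for Cnn2, 0.22 for Tpm2, 0.213 for Tpm1, 0.169 for Cald1, 0.16 for Cnn1 and 0.00425 for Myh11. In KO, the ranges over libraries overlapped for Acta2 and Myl9, for Tpm2 and Tpm1, and for Cald1 and Cnn1. The other neighbours in this order had separate ranges. Within each KO library, Tpm2 nevertheless lay above Tpm1. The WT means were 0.374 for Acta2, 0.279 for Myl9, 0.268 for Tagln, 0.215 for Cnn2, 0.167 for Tpm1, 0.118 for Tpm2, 0.0894 for Cald1, 0.0574 for Cnn1 and 0.00241 for Myh11, with ranges that overlapped between neighbours other than Cnn1 and Myh11. Within each single WT library, however, this order held for all neighbours except Myl9 and Tagln. Averaged over the 6 libraries, Acta2 stood at the 99.5th percentile of genes on this scale and Myh11 at the 19.7th. The highest gene mean was 0.85, for the macrophage complement gene C1qb, and no gene exceeded 1. Acta2 and Myl9 are thus among the genes nearest the top of the range. Whether a ceiling on the counts narrowed their differences was not tested.

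**Figure D2:**
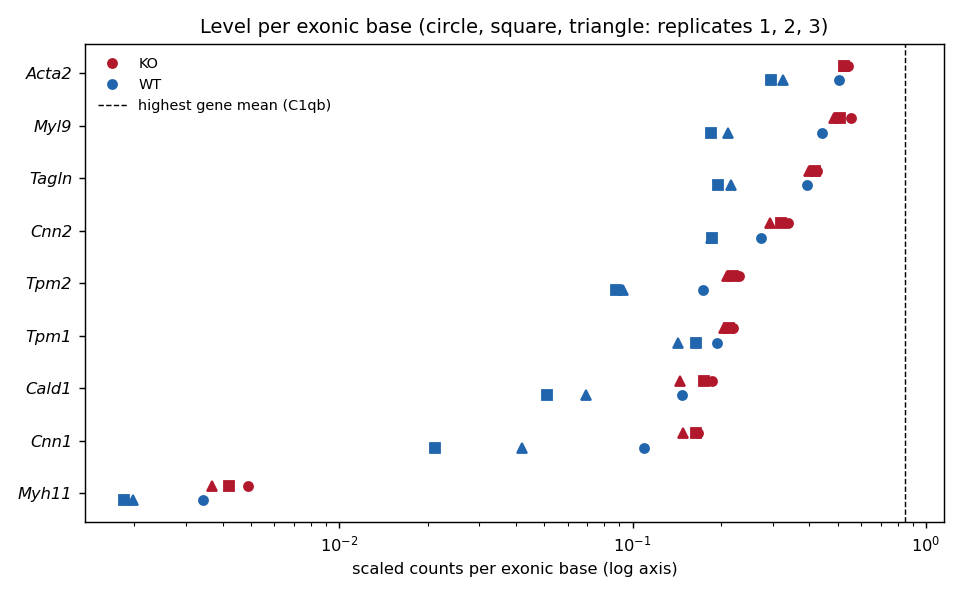
Scaled counts per exonic base (log axis) of the 9 genes in each library, KO above WT in each row, with symbols for the replicates and a dashed line at the highest gene mean (C1qb, 0.85). Acta2 and Myl9 lie within a factor of 2 of that line in KO, and Myh11 lies near 0.004.

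The make-up of the group also differed between libraries. Cnn1 held 6.27% ± 0.145 of the summed level per exonic base of the 9 genes in KO, and 3.31% ± 1.54 in WT (SD, n = 3 each). Tpm1 held 8.36% ± 0.115 in KO and 11.2% ± 2.63 in WT (SD, n = 3 each). Acta2 held 20.3%, 20.6% and 21.7% in KO, and 22.5%, 24.9% and 25.3% in WT. Tagln held 16.3% ± 0.354 in KO and 16.9% ± 0.545 in WT, and its groups overlapped. Among the centred log2 profiles over the 6 libraries, the closest pair was Acta2 and Cnn2, with a root mean square difference of 0.078, followed by Myl9 and Tpm2 at 0.085. The most distant pair was Cnn1 and Tpm1 at 0.94. These distances are descriptions over 6 libraries that share their scaling.

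The comparison addresses the effect of myeloid HDAC2 loss on macrophage cultures of tumour-bearing mice. Hdac2 itself was at 392, 387 and 375 in KO, against 534, 482 and 518 in WT (limma adjusted p = 0.158). With all 6 libraries, 0 of the 9 contractile genes passed the limma test at an adjusted p of 0.05, with adjusted p-values between 0.158 and 0.174, and the background was 0% of the tested genes in each direction. At an unadjusted p under 0.05, all 9 were higher in KO, against 14.7% of the tested genes. The exact two-sided permutation test gave 0.1 for 8 genes, the smallest p that 3 against 3 allows, and 0.2 for Cald1. The median log2 difference was 0.83 over the 9 genes, and -0.0046 over all tested genes. Because the genes were chosen with earlier results known, these counts describe them and are no independent support.

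The WT libraries varied far more than the KO libraries. The SD of the log2 values within WT was between 2.38 and 14.4 times that within KO over the 9 genes. KO 1 was the highest of all 6 libraries for each of the 9, and KO 3 was the lowest KO library for each. WT 2 was the lowest library for 7, and WT 3 for Cnn2 and Tpm1. The shares of all tested genes with these orders were not computed. The summed fibroblast markers given below likewise had KO 1 highest and KO 3 lowest in KO, while the summed pericyte markers had KO 2 lowest. WT 1 lay above both other WT libraries for all 9, against 32.7% of tested genes, and closer to the mean of KO than to that of the other WT pair for all 9, against 66.4%.

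Because the libraries split by Xist, each difference is also given within those of high Xist, as KO against WT 1. There the log2 differences ranged between 0.08 for Acta2 and 0.55 for Cnn1, and the ratio of the KO mean to WT 1 between 1.05 and 1.47. None of the 9 passed the adjusted threshold, and no gene of the table did. That fit takes its spread from the KO libraries alone, although the WT libraries varied more for each of the 9, so its SEs and p-values may be too small. At an unadjusted p under 0.05, Cnn1 (0.55 ± 0.098, SE) and Tpm2 (0.34 ± 0.076, SE) were higher in KO, against 5.17% of the tested genes.

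Without WT 1, all 9 genes were higher in KO past the adjusted threshold, against 12.8% of the tested genes, while 5.07% were lower. The limma adjusted p was 0.000432 for Tpm2, 0.000735 for Myl9, 0.000782 for Tagln and at most 0.0268, for Myh11. The log2 differences ranged between 0.47 for Tpm1 and 2.40 for Cnn1, which had a KO mean 5.05 times the mean of WT 2 and WT 3. Genotype and the Xist split coincide in that fit and cannot be told apart.

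**Figure D3:**
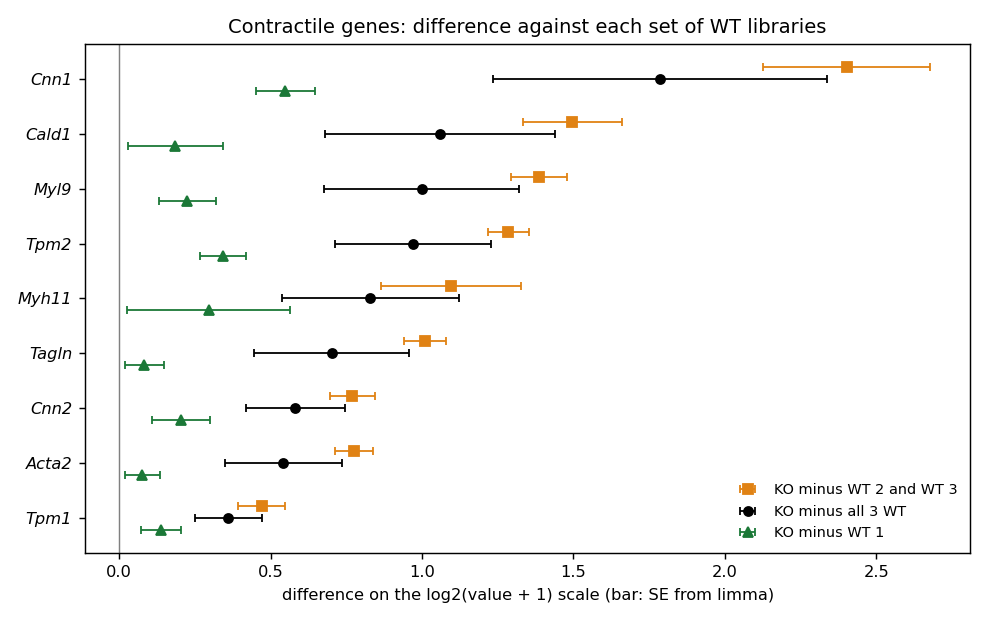
Log2 difference of the KO libraries against WT 2 and WT 3 (squares), all 3 WT libraries (circles) and WT 1 (triangles) for each contractile gene, with bars of 1 SE from limma. The differences against WT 1 lie between 0.08 and 0.55 and those against WT 2 and WT 3 between 0.47 and 2.40.

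Other genes of smooth muscle had higher means in KO as well. Of a list of 20, 18 were measured and 15 tested, and a gene can pass the filter through the KO libraries alone. Pln and Pdlim3 were not found by name among the genes of the deposited table. The mean was higher in KO for 14 (49.1% of all tested genes had a log2 difference above 0). The median log2 difference was 1.34, and 0 passed the adjusted threshold with all libraries. At an unadjusted p under 0.05, 12 were higher and 0 lower, against 14.7% and 9.68% of tested genes. The 4 with the smallest p were Aoc3, Smtn, Synpo2 and Lmod1. Aoc3, a vascular amine oxidase, was at 259, 160 and 149 in KO against 74, 37 and 27 in WT. Smtn, the actin-binding smoothelin, was at 579, 551 and 566 in KO against 425, 231 and 259 in WT.

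Synpo2, a Z-disc and actin-bundling protein, was at 234, 136 and 82 in KO against 57, 9 and 17 in WT. Lmod1, the leiomodin that nucleates smooth muscle actin filaments, was at 563, 447 and 399 in KO against 305, 56 and 90 in WT. In both genes the groups were separate, and WT 1 again lay between KO and the other WT libraries. Some genes were chosen for mention after their values were seen. Actg2, the enteric smooth muscle actin, was at 755, 759 and 669 in KO against 632, 260 and 355 in WT. Mylk, the kinase that phosphorylates the regulatory light chain, was at 1339, 1099 and 961 in KO against 844, 251 and 290 in WT. Des, the muscle intermediate filament desmin, was at 95, 78 and 141 in KO against 80, 36 and 21 in WT, where KO 2 and WT 1 overlapped. Pgm5, a phosphoglucomutase-like protein of adherens junctions, was the only tested member with a lower mean in KO, at 16, 14 and 38 against 24, 83 and 61 in WT. Without WT 1, where genotype and the Xist split coincide, 13 of the 15 were higher in KO past the adjusted threshold, against 12.8% of all tested genes. Against WT 1 alone the median was 0.41 and none passed.

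The widely expressed paralogues and partners of the contractile genes behaved differently from one another. Of 18 tested, 7 had a higher mean in KO (49.1% of all tested genes had a log2 difference above 0). The median log2 difference was -0.04 (0.06 under cyclic loess), and 0 passed with all libraries. At an unadjusted p under 0.05, KO exceeded WT for 3 and lay below it for 3, near the 14.7% and 9.68% of all tested genes. Myh10, the heavy chain of non-muscle myosin IIB, was at 1298, 1165 and 975 in KO against 668, 206 and 262 in WT. Vcl, which encodes vinculin of adhesion sites, was at 2013, 1953 and 1827 in KO against 1733, 1320 and 1164 in WT. Cnn3, the acidic calponin, was at 681, 628 and 581 in KO against 551, 174 and 195 in WT. These 3 were also the ones past the adjusted threshold without WT 1, against 12.8% of all tested genes.

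Tagln2, the transgelin of blood cells, went the other way, at 753, 748 and 821 in KO against 853, 967 and 869 in WT. Tpm3, a tropomyosin of non-muscle cells and slow muscle, was at 815, 824 and 874 in KO against 884, 997 and 878 in WT. Myh9, the heavy chain of non-muscle myosin IIA, was at 4620, 4586 and 4663 in KO against 4798, 4679 and 4334 in WT. The cytoplasmic actin Actb was at 1388, 1398 and 1462 in KO against 1531, 1654 and 1500 in WT. Averaged over the 6 libraries, Actb stood at 0.556 per exonic base, above Acta2 at 0.453, as did Flna, Tpm4 and Tln1 of this list. Whether a ceiling on the counts narrowed the differences of such genes was not tested.

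Among regulators, SRF itself showed no separation, at 455, 457 and 487 in KO against 425, 476 and 435 in WT. Mrtfa was at 906, 889 and 1003 in KO against 933, 1096 and 966 in WT. Mrtfb was at 1116, 1147 and 1203 in KO against 1294, 1524 and 1402 in WT, without overlap (log2 difference -0.28 ± 0.071, SE; limma adjusted p = 0.158). Klf4, which represses contractile genes in smooth muscle, was at 152, 145 and 195 in KO against 145, 208 and 178 in WT. The other regulators of smallest p were the coactivator gene Yap1 and the DNA-binding factors Tead1 and Tead3. Yap1 was at 636, 551 and 485 in KO against 387, 84 and 97 in WT. Tead1 was at 1273, 1153 and 961 in KO against 811, 180 and 198 in WT, and Tead3 at 167, 144 and 114 in KO against 88, 20 and 19 in WT. In all 3 the groups were separate and WT 1 lay between. Of the 13 regulators tested (15 measured), KO exceeded WT for 6 and lay below it for 1 at an unadjusted p under 0.05 (14.7% and 9.68% of all tested genes), the median was 0.07, and 0 passed with all libraries. Without WT 1, 6 higher and 1 lower in KO passed the adjusted threshold, against 12.8% and 5.07% of all tested genes. In this list too a gene can pass the filter through the KO libraries alone. Gata6, counted as higher in both comparisons, was at 41, 28 and 42 in KO against 16, 4 and 0 in WT.

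**Figure D4:**
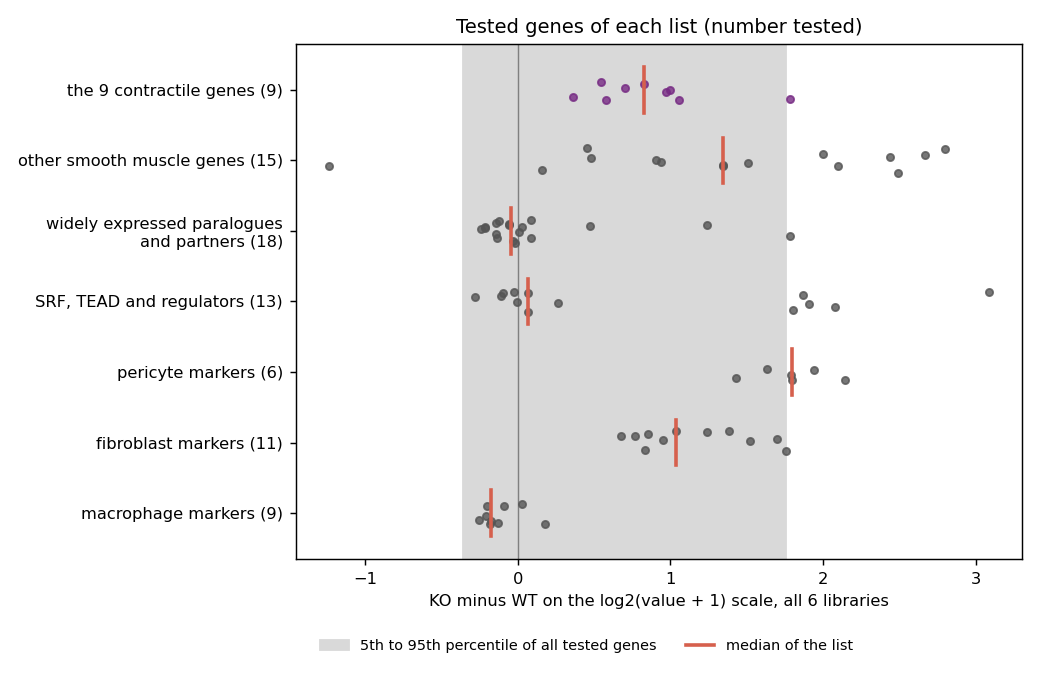
Log2 difference of KO minus WT over all 6 libraries for the tested genes of each list (points) with the list median (red bar), over the 5th to 95th percentile of all tested genes (grey, -0.36 to 1.76). The 9 contractile genes lie between 0.36 and 1.78, while the paralogue and regulator lists have medians near 0 with a few genes above 1.

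Fibroblast and pericyte markers had higher means in KO, and none of them passed the adjusted threshold with all libraries. Summed over 12 fibroblast markers, the level was 18057, 17012 and 15104 in KO against 14755, 6235 and 6762 in WT, with Col1a1 the highest in scaled counts, which also reflect gene length, and Lum the lowest. All 11 tested markers had a higher mean in KO, with a median log2 difference of 1.04. Over all tested genes, 49.1% had a log2 difference above 0. Summed over 7 pericyte markers, the level was 1406, 1268 and 1387 in KO against 979, 279 and 246 in WT, with Cspg4 the highest in scaled counts and Abcc9 the lowest, at 1 to 8. All 6 tested pericyte markers had a higher mean in KO, with a median of 1.79. Kcnj8 and Higd1b, also on the pericyte list, were not found by name among the genes of the deposited table. In both lists a gene can pass the filter through the KO libraries alone. Both sums placed WT 1 between the KO libraries and the other WT libraries. None of the markers found by name was at 0 in all libraries. The sum of the 9 contractile genes was 0.463, 0.469 and 0.487 of the fibroblast sum in KO, and 0.47, 0.596 and 0.593 of it in WT. On this measure KO 3 lay above WT 1, and all KO libraries lay below WT 2 and WT 3. The part of these cells in the differences was not tested.

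Macrophage markers lay slightly the other way. Their sum over 9 genes was 10290, 10492 and 10774 in KO against 11312, 11842 and 11112 in WT, with Csf1r the highest in scaled counts. A higher mean in KO was found for 2 of 9 (49.1% of all tested genes had a log2 difference above 0). Lyz2, 1 of the 9, is also the locus from which Cre is driven in KO. It was at 930, 942 and 953 in KO against 1068, 1144 and 1055 in WT. What Cre at this locus did to its level was not tested. The contractile sum was 0.812, 0.761 and 0.682 of the macrophage sum in KO, and 0.613, 0.314 and 0.361 of it in WT. Averaged over the 6 libraries, Cd68, Lyz2, C1qa and Adgre1 stood at 0.835, 0.772, 0.765 and 0.672 per exonic base. These levels lay near the highest gene mean of 0.85, while Itgam was the lowest of the 9 at 0.118. Whether a ceiling on the counts narrowed the differences of the macrophage markers was not tested. Endothelial markers summed to 500, 574 and 821 in KO against 823, 1476 and 880 in WT over 7 genes, of which Vwf made up most, and Tek did not exceed 4 in any library. Vwf had a log2 difference of -1.02, while the other 3 tested endothelial markers (Kdr, Cdh5 and Egfl7) had higher means in KO, and the median of the 4 was 0.59. Platelet markers summed to 338, 342 and 345 in KO against 371, 405 and 347 in WT over 6 genes, with Pf4 the highest in scaled counts and Gp1bb and Gp1ba the lowest, each at 5 or below. Osteoblast markers summed to 450, 333 and 265 in KO against 286, 199 and 212 in WT over 4 genes, with Runx2 the highest in scaled counts and Ibsp the lowest. Skeletal and cardiac muscle markers summed to 112, 81 and 104 in KO against 63, 34 and 26 in WT over 5 genes. Only these 5 of 11 muscle markers were found by name, with Acta1 the highest in scaled counts and Tnnt2 the lowest. The epithelial marker Krt19 was at 95, 73 and 75 in KO against 22, 10 and 1 in WT, while Cdh1 did not exceed 6. Only these 2 of 6 epithelial markers were found by name, and Epcam, Krt8, Krt18 and Sftpc were not. Fabp4, the only adipocyte marker measured, was at 164, 166 and 187 in KO against 209, 278 and 287 in WT.

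**Figure D5:**
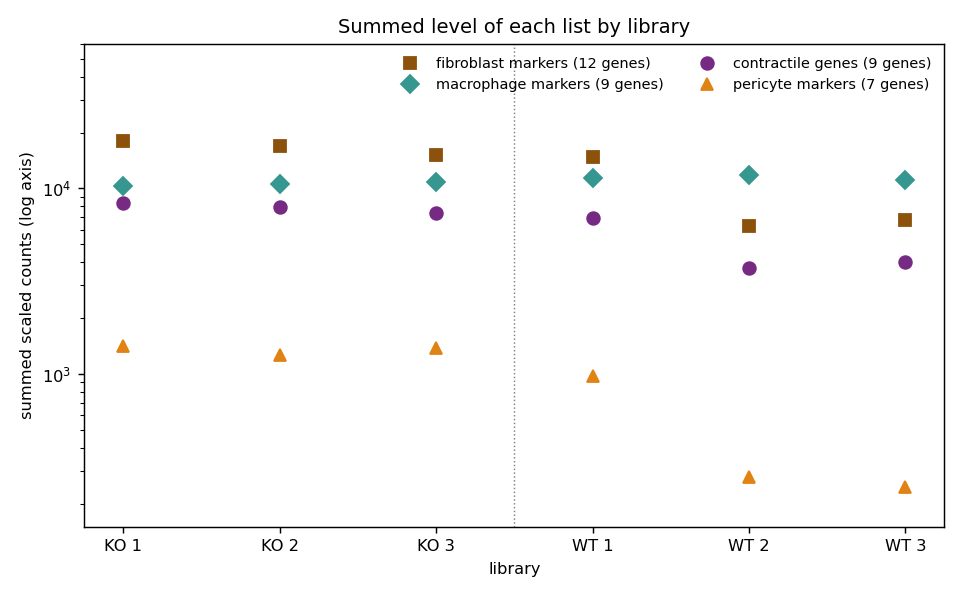
Summed scaled counts (log axis) of fibroblast, macrophage and pericyte markers and of the 9 contractile genes in each library, with KO left of the dotted line. The contractile sum is 8355, 7981 and 7353 in KO and 6933, 3717 and 4007 in WT, and the macrophage sum stays between 10290 and 11842.

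The genes with the most similar values over the 6 libraries were sought for each of the 9 among 11441 genes. Likeness was the root mean square difference of log2 values centred on each gene's mean, over all 6 libraries. Acta2 was closest to Pald1 (0.018), Chd7 (0.044) and Zc3hav1l (0.051). Pald1, which encodes paladin, was at 698, 678 and 661 in KO against 650, 368 and 415 in WT. Tagln was close to Ppic (0.039) and Serpinh1 (0.039). Serpinh1, a collagen chaperone, was at 1238, 1196 and 1200 in KO against 1107, 568 and 596 in WT.

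Cald1 was closest to Loxl2 (0.031), Csrp2 (0.04) and Col5a2 (0.053), and Cnn2 to Cemip2 (0.028), Cttn (0.036) and Ctps (0.038). Csrp2, a LIM protein known from smooth muscle, was at 363, 328 and 296 in KO against 283, 96 and 132 in WT. Myl9 was close to Fstl1 (0.043) and Olfml3 (0.065), and Tpm2 was closest to Uck2 (0.048), Morrbid (0.051) and Pdlim7 (0.054). Tpm1 was closest to Creb3l2 (0.033), Parp3 (0.033) and Parvg (0.039), and Myh11 to Kank2 (0.06), Nuak1 (0.06) and P4ha2 (0.066). Cnn1 had no neighbour as near as these, with Fhl1 (0.113), Ly75 (0.122) and Gcnt4 (0.127) the closest. Fhl1, a LIM domain protein of muscle, was at 581, 542 and 499 in KO against 402, 82 and 127 in WT.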

How the data were processed

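Poly(A) RNA was sequenced from 6 macrophage libraries (KO and WT, 3 each), with 3 µg of total RNA per library in a stranded kit and single reads of 72 bases, per the labels' protocols. The deposited values are a score: read counts per gene scaled per library and rounded by the authors, read from nearly equal totals and from whole numbers absent in WT 2 (6, 17, 29, 40 and 52). Trimmomatic 0.39, STAR 2.7.10a, Picard 2.27.4, featureCounts 2.0.3, DESeq2 1.36.0 and mm10 are named, without roles, per the submitters' processing notes. The reads behind each value are not known exactly, so no count model or counting interval was used, and limma on log values took the place of a count test.

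The 13260 genes reaching 10 in 3 or more libraries were compared on the log2(value + 1) scale by limma 3.58.1 (trended variance, R 4.3.3). P-values are two-sided and Benjamini-Hochberg adjusted over these genes, with a threshold of 0.05. The model held the group alone over all 6 libraries, and differences are KO minus WT. The fit was tested on simulated data. Exonic lengths are unions of exons in GENCODE release M21, which held 17297 of the genes, 99.1% with the same span. Summaries used Python 3.11.15 and pandas 2.3.3.

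The members and lists were chosen with earlier results of these data known. Named genes are the 9 members, Hdac2, Srf, Myocd, Mrtfa, Mrtfb, Klf4, the 4 tested genes of smallest p in each of 3 pathway lists, the markers of highest and lowest scaled counts in each cell type, overlapping and neighbouring genes, and the 3 nearest profiles per member. The last rule left out members, sex-linked genes, predicted models, pseudogenes and means under 20. A few genes and 1 gene list that these rules cover are not reported here. Other genes given with values were picked after those values were seen. Alternatives were other pseudocounts, filters, scalings, no trend, each library left out, KO against WT 1 alone, and the replicate number as a block.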

Additional observations from a re-analysis of the deposited data

How the results depend on the processing

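All 134 recomputed log2 differences of the 9 genes over 15 alternatives were positive, and 9 passed the adjusted threshold, all of them without WT 1. Leaving out 1 library gave 0 to 9 of the 9 genes past the adjusted threshold and 3 to 9 at an unadjusted p under 0.05, and over all genes 0 to 2363 and 1422 to 4349. The 0 arose for each library other than WT 1, and the 3 arose without KO 1 and without WT 3. For KO against WT 1 alone, the median log2 difference of the 9 genes was 0.20, and 2 of them and 826 of all genes had an unadjusted p under 0.05. The lists gave 0 to 13 genes past the threshold for other smooth muscle genes, 0 to 3 for paralogues and 0 to 7 for regulators, with the upper value without WT 1 in each. Of the recomputed list medians, 2 moved beyond their spread between libraries. Myh11 has no value where a mean of at least 100 was required. The cause of these changes was not tested.

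The labels do not say whether the replicate numbers pair the libraries. Deviations from the group means correlated at 0.534, -0.364 and 0.024 between libraries of the same number. Between libraries of unlike number, the correlations ran from -0.545 (KO 3 with WT 1) to 0.618 (KO 3 with WT 2). With 3 libraries per group and WT 1 apart from the other WT libraries, these correlations cannot decide whether the numbers pair them. With the replicate number as a block, 0 of the 9 genes and 0 of all genes passed, and the median log2 difference was 0.83. Among the 9 genes, rounding bears most on Myh11, whose values lie between 14 and 37.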
